A study of Mus musculus with 6 samples.

Results

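Transcripts of 48 genes that send, receive or report the Wnt signal were followed in stromal cells of mouse bone marrow (BMSCs), which grow attached to plastic and can form bone, fat and cartilage. The genes were picked by name, by family and role, from the 56691 genes of the deposited table; the rule has no threshold on a measured value, though earlier results of these data were known when it was set. They comprise 19 Wnt ligands, 4 R-spondins, 10 Frizzled receptors, the 2 co-receptor genes Lrp5 and Lrp6, the 2 receptor tyrosine kinase genes Ror1 and Ror2 and the 3 R-spondin receptor genes Lgr4, Lgr5 and Lgr6. The ubiquitin ligase genes Rnf43 and Znrf3 and 6 target or feedback genes (Axin2, Lef1, Tcf7, Nkd1, Nkd2 and Sp5) complete the set.

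Wnt proteins are lipid-bearing secreted ligands that bind a Frizzled receptor. With an LRP co-receptor this stabilises beta-catenin, which enters the nucleus and switches on target genes together with TCF/LEF factors, while Wnt5a acts mostly through Frizzled and ROR receptors without beta-catenin. Frizzleds are removed from the cell surface by the ligases RNF43 and ZNRF3, and R-spondins, bound to LGR receptors, hold these ligases off. In bone the beta-catenin branch is known to favour osteoblast formation.

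The cells, wild type per the labels and given there as mesenchymal stem cells from bone, were differentiated towards osteoblasts for 7 days. Both groups received 10% FBS, 50 µg/ml ascorbic acid and 1.08 mg/ml beta-glycerophosphate, renewed every 2 days. One group of 3 samples also received medium conditioned by Hepa 1-6 cells, a mouse hepatoma line, and the other group of 3 received control medium. The sources used here do not give the strain, the age, how the control medium was prepared, or whether replicates were separate animals or cultures. What hepatoma cells release and what medium conditioning does in general therefore cannot be told apart, and the p-values cover only the spread among these 6 samples, possibly a technical one.

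The libraries held 18661629 to 21329475 gene counts each. The label of the cells covers only part of the RNA. All 14 macrophage markers examined were measured in both groups, and 9 of them fell while 5 rose. Their summed level, in FPKM (a count scaled to exonic length and library total), was 8913 to 10320 in control and 6458 to 7171 in conditioned medium. Lyz2 alone, at means of 6683 and 4571 FPKM, made up most of both sums. Of 10 tested osteoblast markers 8 fell, and the list's summed level was 1640 to 1791 FPKM in control and 2429 to 2475 FPKM in conditioned medium, with Spp1 as the single riser. Stromal markers summed to 794 to 806 FPKM in control and 737 to 756 FPKM in conditioned medium, with 6 of 10 tested members up and 2 down. The lower stromal sum came from Postn, which went from 362 to 207 FPKM. Lyz2 and Postn were named after their values were seen. The T cell markers Cd3e, Cd3g and Cd8a were at 0 counts. Both tested members of the lymphocyte list fell, Cd4 from 1.27 to 0.747 FPKM and Cd79b from 2.50 to 0.79 FPKM. Both passed the filter on mean FPKM, given below, only through control medium, so their shared direction is not read as a result. Rises and falls here are to be read beside the 23.0% of all genes tested that rose and the 22.9% that fell. These are bulk samples, so fewer cells of a type and less RNA per cell cannot be told apart, and the part of cell composition in the results that follow was not tested.

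Of the 48 genes, 21 had a mean of at least 1 FPKM over the 6 samples and were tested with edgeR's quasi-likelihood test, adjusted over all 12153 genes tested. In conditioned medium 2 of them rose and 10 fell, and 9 were not called at an adjusted p under 0.05. The called share was 57.1% of the tested members, beside 45.9% of all genes tested. Falls made up 47.6% of the tested members and 22.9% of all genes, and rises 9.52% and 23.0%. The libraries of the groups did not overlap in 16 of the 21 genes (76.2%), beside 53.5% of all genes tested. The median log2 fold change, conditioned against control medium, was -0.18 for the tested members and -0.0028 for all genes tested. The filter took in genes that were above 1 FPKM in control medium alone, such as Wnt9a, Fzd6 and Nkd1. These were also the 3 called genes that changed at least 2-fold (14.3% of the tested members, beside 5.28% of all genes tested), so these counts describe the tested members and not all 48.

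**Figure D1:**
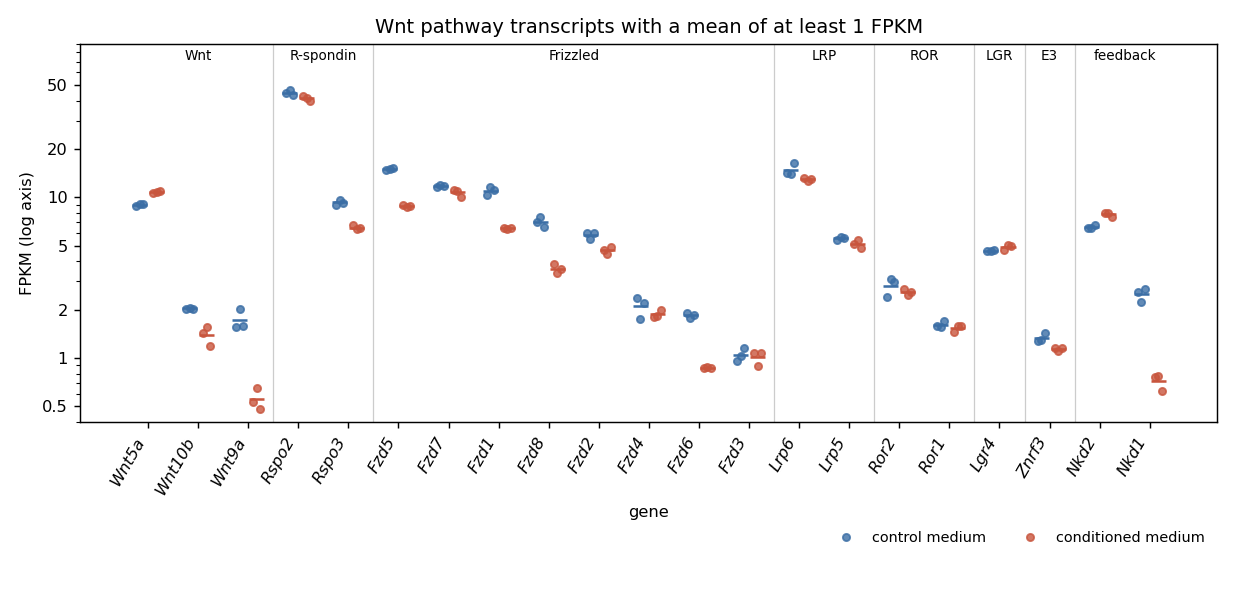
FPKM (log axis) of the 21 tested genes in each library, ordered by role. Points are the 3 libraries of control medium (blue) and of conditioned medium (red), and short lines are group means. Rspo2 lies highest, near 40 to 46 FPKM in every library, and Wnt9a, Fzd6 and Nkd1 drop below 1 FPKM in conditioned medium.

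Among the ligands, Wnt5a rose while Wnt9a and Wnt10b fell. Wnt5a, a ligand that mostly signals without beta-catenin, was at 8.87, 9.10 and 9.06 FPKM in control replicates 1 to 3 and at 10.6, 10.8 and 11.0 FPKM in conditioned medium. Every conditioned library was above every control library, and the rise was modest, at a log2 fold change of 0.28 ± 0.047 (SE, adjusted p = 5.91e-05). Wnt9a was at 1.56, 2.02 and 1.59 FPKM in control and at 0.53, 0.65 and 0.48 FPKM in conditioned medium. All conditioned libraries lay below all control libraries, a 3.10-fold fall (log2 fold change -1.63 ± 0.19, adjusted p = 4.14e-07). Wnt10b, known in mice as a ligand that raises bone mass through beta-catenin, was at 2.03, 2.04 and 2.03 FPKM in control and 1.43, 1.56 and 1.19 FPKM in conditioned medium. Its conditioned libraries were likewise all lower, with a log2 fold change of -0.54 ± 0.14 (adjusted p = 0.00403).

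The summed level of the 19 ligand transcripts was 14.7, 15.8 and 14.8 FPKM in control libraries and 15.5, 15.4 and 15.6 FPKM in conditioned libraries, and these ranges overlap. The make-up of the pool differed. Wnt5a held 59.8% ± 1.84 (SD, n = 3) of the summed ligand FPKM in control and 69.8% ± 1.18 in conditioned medium. Wnt9a held 11.4% ± 1.22 and 3.58% ± 0.587, and Wnt10b 13.5% ± 0.491 and 9.02% ± 1.27. These shares are descriptions with no test.

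**Figure D2:**
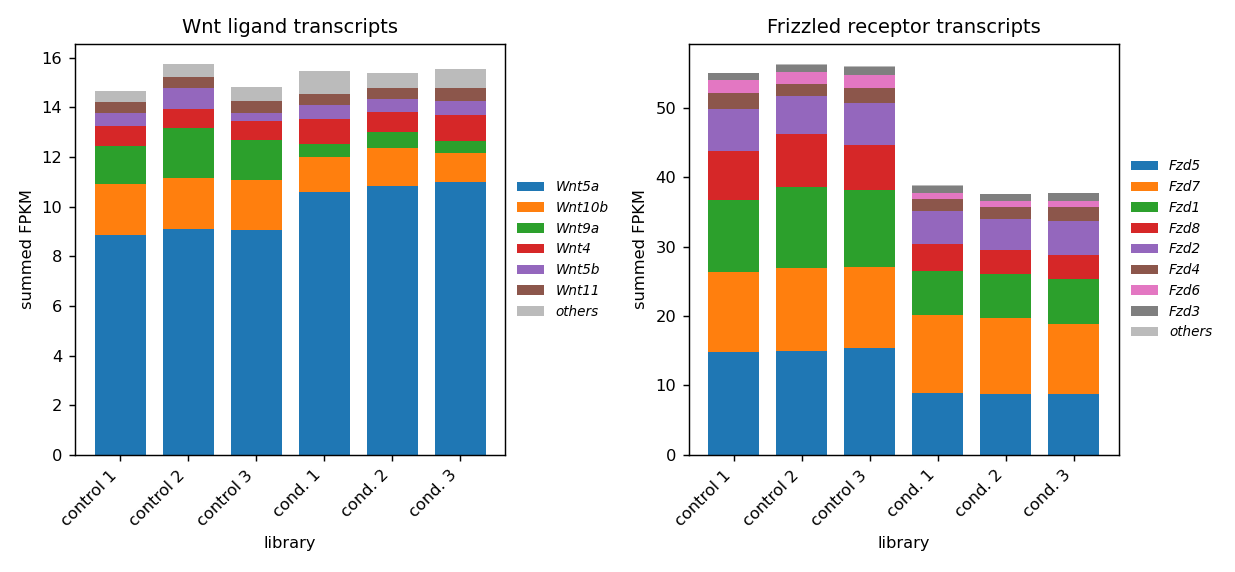
Stacked bars of FPKM per library (3 of control medium, 3 of conditioned medium, marked cond.) for Wnt ligand transcripts on the left and Frizzled transcripts on the right. The ligand sum stays between 14.7 and 15.8 FPKM with a larger Wnt5a part in conditioned medium, while the Frizzled sum is 55.1 to 56.4 FPKM in control and 37.6 to 38.9 FPKM in conditioned medium.

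The other 16 ligand genes lay below the filter. Of these, 6 had at least 10 counts in a library, and 5 of the 6 were kept by edgeR's filterByExpr, an alternative filter on counts that admitted 15221 genes. None of these 5 was called in that test, with adjusted p-values from 0.145 for Wnt2b to 0.886 for Wnt5b. Wnt4 had 61, 67 and 67 counts in control and 86, 63 and 93 in conditioned medium (log2 fold change 0.29 ± 0.18). Wnt11 had 35, 36 and 41 counts against 39, 35 and 47, and Wnt16 had 18, 14 and 15 against 10, 8 and 16. For both genes the groups overlapped and no difference was detectable at this depth. Wnt2b had 8, 20 and 17 counts against 28, 20 and 24 (0.66 ± 0.36). The Wnt5b gene body overlaps Fbxl14 on the opposite strand, which held 3230 counts over the 6 samples against 179 for Wnt5b. The sources used here do not say whether the counting used strand, so the Wnt5b counts are uncertain.

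Wnt6 had 2, 3 and 4 counts in control and 21, 7 and 11 in conditioned medium. The groups did not overlap, but conditioned replicate 1 held more counts than the other two together. A test of every gene with at least 1 count, in which 21.7% of 29132 genes were called, 11.1% as rises, and 30.5% had groups that did not overlap, gave a log2 fold change of 2.05 (adjusted p = 0.00652). Without conditioned replicate 1 the adjusted p was 0.211.

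Many ligand genes gave almost no reads. Wnt1, Wnt3, Wnt3a, Wnt8b, Wnt9b and Wnt10a had 0 of 121028120 counts over the 6 libraries, which allows a level of up to 0.0248 CPM each, counting error only. Wnt2, Wnt7a, Wnt7b and Wnt8a had between 0 and 5 counts in any library. Several silent ligands lie beside a ligand gene that was read. In the positions of the table (GRCm39) Wnt10b lies 11.7 kb from Wnt1 on chromosome 15, Wnt9a lies 16.2 kb from Wnt3a on chromosome 11, and Wnt6 lies 6.2 kb from Wnt10a on chromosome 1. In each of these 3 pairs one gene had counts in every library and its neighbour had 0 in every library. In the fourth such pair, Wnt9b and Wnt3, which are 24.3 kb apart on chromosome 11, both were at 0.

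R-spondin 2 was the most abundant transcript of the set per length. Rspo2 was at 44.6, 46.3 and 43.2 FPKM in control and 42.8, 41.5 and 40.0 FPKM in conditioned medium. Each conditioned library lay below each control library, by little, and the gene was not called (log2 fold change -0.094 ± 0.044, adjusted p = 0.0912). It was called without control replicate 3 (adjusted p = 0.0112) and when scaled by library totals alone (adjusted p = 0.0489).

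Rspo3, a second R-spondin, was at 9, 9.65 and 9.21 FPKM in control and 6.70, 6.35 and 6.4 FPKM in conditioned medium. The ranges were well apart, and the log2 fold change was -0.50 ± 0.071 (adjusted p = 5.08e-06). Rspo3 shares part of its span with Gm20276 on the same strand, which held 17 counts against 2944 for Rspo3. Rspo1 and Rspo4 had at most 2 counts in a library. Summed R-spondin FPKM was 3.58 ± 0.0618 times the summed Wnt ligand FPKM in control and 3.10 ± 0.114 times in conditioned medium (SD, n = 3).

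Frizzled receptor transcripts fell in 5 of 8 tested members (62.5%) and rose in none, with 3 not called. Of all genes tested, 22.9% fell and 23.0% rose. Across the 10 Frizzled genes the summed level went from 55.8 ± 0.659 FPKM in control to 38.1 ± 0.698 FPKM in conditioned medium (SD, n = 3), and no control library was as low as any conditioned one. The falls were uneven. Fzd6 fell by 1.07 ± 0.13 on the log2 scale, Fzd8 by 0.95 ± 0.072, Fzd1 by 0.77 ± 0.064, Fzd5 by 0.75 ± 0.047 and Fzd2 by 0.30 ± 0.079 (adjusted p from 2.04e-11 for Fzd5 to 0.00341 for Fzd2).

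Fzd5, the most abundant Frizzled in control medium, was at 14.86, 14.96 and 15.32 FPKM there and at 8.97, 8.74 and 8.79 FPKM in conditioned medium. Fzd1 was at 10.3, 11.7 and 11.1 FPKM against 6.41, 6.38 and 6.4 FPKM. In both genes replicates of a group lay close together and far from the other group. Fzd8 was at 7.06, 7.57 and 6.52 FPKM against 3.83, 3.39 and 3.58 FPKM. Fzd6, which is known mostly for signalling without beta-catenin, was at 1.9, 1.77 and 1.86 FPKM against 0.87, 0.88 and 0.86 FPKM. Both were lower in all conditioned libraries, with no overlap between groups.

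Fzd7 stood at 11.5, 12.0 and 11.7 FPKM in control and 11.1, 11.0 and 10.1 FPKM in conditioned medium, and was not called (log2 fold change -0.12 ± 0.056, adjusted p = 0.0993). Fzd4, best known as the Norrin receptor of retinal vessels, and Fzd3 were not called either, at -0.15 ± 0.11 and -0.030 ± 0.10. Fzd4 was called when control replicate 2 was left out (adjusted p = 0.0469). Fzd9 and Fzd10 had at most 4 counts in a library.

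The order of the Frizzled levels differed between the media. In control medium Fzd5 was above Fzd7 and Fzd8 above Fzd2 in every library. Fzd7 was above Fzd1 in every library of both media, though their ranges over the control libraries overlapped. In conditioned medium Fzd7 was the highest in every library, at 28.2% ± 1.31 of the summed Frizzled FPKM against 21.1% ± 0.171 in control. Fzd2, at 4.71, 4.44 and 4.90 FPKM, then lay above Fzd8 in each library. These ranks compare FPKM values, which are per length, and were not tested. Markers of other cells moved in both directions beside the Frizzleds. Of the macrophage list Csf1r went from 130 ± 1.34 to 50.4 ± 1.95 FPKM and was among 9 that fell, while Itgam, Fcgr1, Cd14, Adgre1 and Mrc1 rose, Itgam by 1.80 on the log2 scale. Of the osteoblast list Sp7 went from 6.77 ± 0.515 to 2.24 ± 0.560 FPKM and was among 8 that fell, while Spp1 rose by 2.09. Of 4 tested endothelial genes Emcn rose by 0.40, Kdr fell by 0.45, and Pecam1 and Cdh5 were not called. The fat cell gene Adipoq had 35 counts over all 6 libraries. Of 3 tested genes of the fat cell list Lpl fell by 1.73, Pparg fell by 0.36 and Fabp4 rose by 1.325. The rising markers, Cdh5, Kdr, Lpl and Pparg were named after their values were seen. Their part in the falls of the Frizzleds was not tested.

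**Figure D3:**
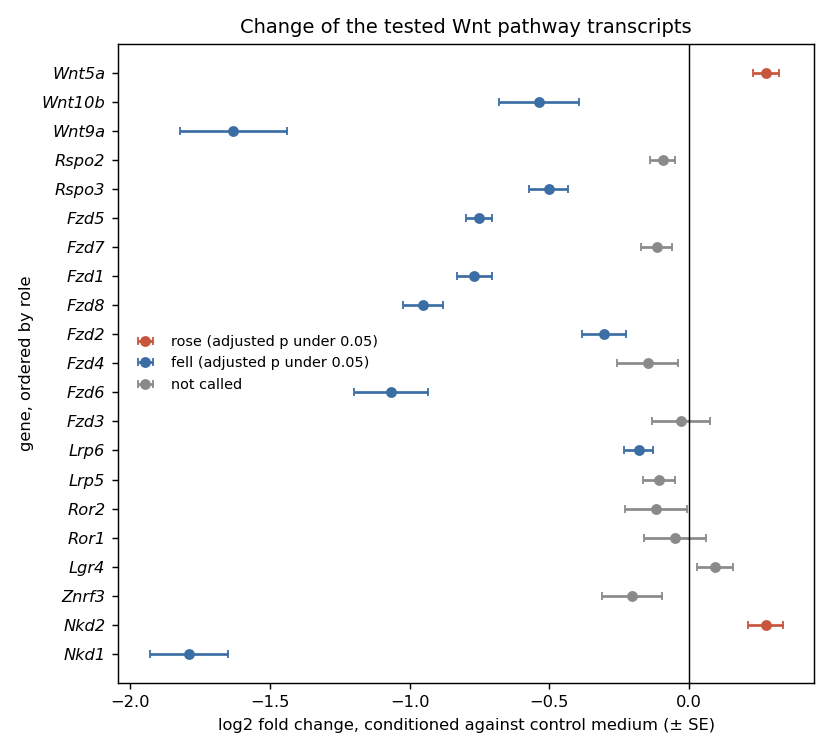
Log2 fold change of the 21 tested genes, conditioned against control medium, with bars of ± 1 SE from the edgeR fit over 6 libraries. Genes that rose are red, genes that fell are blue and genes not called are grey. Nkd1, at -1.79, and Wnt9a, at -1.63, lie farthest to the left, and Wnt5a and Nkd2 are the called genes to the right of 0.

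Co-receptors moved little. Lrp6, the co-receptor gene that most tissues depend on, was at 14.2, 14.0 and 16.3 FPKM in control and 13.1, 12.7 and 13.0 FPKM in conditioned medium. The groups did not overlap, and the log2 fold change of -0.18 ± 0.053 was called (adjusted p = 0.00849) except without conditioned replicate 2 (adjusted p = 0.0511). Without control replicate 3, the highest library, the change was -0.10 (adjusted p = 0.0199). Lrp5, whose loss lowers bone mass in mice and humans, was at 5.39, 5.69 and 5.62 FPKM against 5.11, 5.44 and 4.81 FPKM. Its groups overlapped and it was not called (-0.11 ± 0.057, adjusted p = 0.141).

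The ROR receptors, which bind Wnt5a, were not called. Ror2 was at 2.39, 3.08 and 2.99 FPKM in control and 2.68, 2.46 and 2.58 FPKM in conditioned medium (-0.12 ± 0.11 on the log2 scale). Ror1 was at 1.59, 1.55 and 1.69 FPKM against 1.46, 1.59 and 1.58 FPKM (-0.049 ± 0.11). For both genes the spread between replicates was as wide as the difference between groups.

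Of the R-spondin receptors, Lgr4 changed little while Lgr5 and Lgr6 went in opposite directions at low levels. Lgr4 was at 4.61, 4.66 and 4.70 FPKM in control and 4.73, 5.04 and 4.98 FPKM in conditioned medium, a difference that was not called (log2 fold change 0.094 ± 0.065, adjusted p = 0.262). Lgr5, a marker of stem cells in several epithelia, had 62, 80 and 72 counts in control and 18, 24 and 7 in conditioned medium. Lgr6, its close relative, had 25, 23 and 34 counts in control and 130, 102 and 86 in conditioned medium. The groups did not overlap for either gene.

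Both lay below the filter of 1 FPKM and were tested among the genes kept by filterByExpr, of which 42.2% were called and 50.5% had groups that did not overlap. There Lgr5 fell by 2.13 ± 0.30 on the log2 scale (adjusted p = 1.34e-06) and Lgr6 rose by 1.94 ± 0.22 (adjusted p = 4.94e-08). Per length, the ratio of Lgr6 to Lgr5 was 0.625, 0.447 and 0.706 in control libraries and 11.4, 6.50 and 19.7 in conditioned libraries. Lgr4 still held 89.4% ± 0.424 of the summed LGR FPKM in control and 85.5% ± 3.17 in conditioned medium (SD, n = 3), so the change of Lgr5 and Lgr6 touched a small part of that pool.

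Znrf3, the ligase gene that clears Frizzleds from the surface and is itself a Wnt target, was at 1.27, 1.29 and 1.43 FPKM in control and 1.16, 1.11 and 1.16 FPKM in conditioned medium. The libraries of the groups were apart but close, and it was not called (log2 fold change -0.20 ± 0.11, adjusted p = 0.135). Rnf43 had at most 6 counts in a library.

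**Figure D4:**
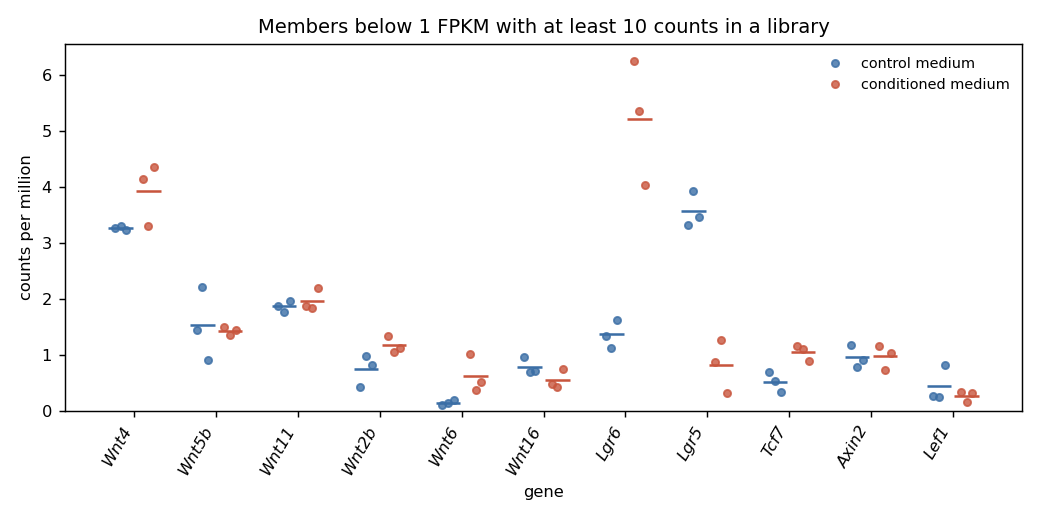
CPM (counts scaled to the library total, linear axis) in each library for the 11 genes below the filter with at least 10 counts in a library, with group means as short lines (control medium blue, conditioned medium red). Lgr6 lies higher and Lgr5 lower in all conditioned libraries, while the groups of Axin2, Wnt11 and Wnt5b overlap.

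Of the 6 target and feedback genes, Nkd1 and Nkd2 passed the filter, and Nkd1 fell while Nkd2 rose. Nkd1 and Nkd2 encode the naked cuticle proteins, which bind Dishevelled and restrain the Wnt signal, and Nkd1 is a known beta-catenin target. Nkd1 was at 2.57, 2.24 and 2.68 FPKM in control and 0.76, 0.77 and 0.62 FPKM in conditioned medium. This was a 3.46-fold fall with no overlap (log2 fold change -1.79 ± 0.14, adjusted p = 9.29e-10), and the largest among the tested members. Nkd2 was at 6.42, 6.43 and 6.75 FPKM against 7.96, 7.98 and 7.52 FPKM. All of its conditioned libraries were higher (0.27 ± 0.061, adjusted p = 9.56e-04). The ratio of Nkd1 to Nkd2 FPKM was 0.400, 0.348 and 0.397 in control and 0.0955, 0.0965 and 0.0825 in conditioned medium.

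Axin2, a scaffold gene of the beta-catenin destruction complex and the most used readout of the signal, was low in every library. It had 22, 16 and 19 counts in control and 24, 14 and 22 in conditioned medium, and the groups overlapped. Among genes kept by filterByExpr its log2 fold change was 0.049 ± 0.34 (adjusted p = 0.928), so at this depth a difference was not detectable, and the standard error leaves room for moderate changes either way. Tcf7, which encodes the factor TCF1, had 13, 11 and 7 counts against 24, 21 and 19. Its groups did not overlap, and in the same test it rose by 1.02 ± 0.39 (adjusted p = 0.0351). The call did not hold with DESeq2 (adjusted p = 0.0775), nor without control replicate 2 or 3 (0.0656 and 0.145) or without conditioned replicate 1 or 2 (0.101 and 0.0831). Lef1 had 5, 5 and 17 counts against 7, 3 and 7. Sp5, a transcription factor gene that beta-catenin switches on in embryos, had at most 6.

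With filterByExpr 30 of the 48 genes were tested, and 4 rose and 11 fell. The called share was then 50% of the members tested, beside 42.2% of the 15221 genes, of which 21.0% rose and 21.2% fell. The 3 calls added were Lgr5, Lgr6 and Tcf7.

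Promoter sequences are shown for the paralogs Nkd1 and Nkd2, which moved in opposite directions, and for Sp5, which holds the TCF/LEF core. The windows are the 250 bases before the RefSeq transcription start (GRCm38.p6, not the build of the counts), 5′ to 3′ on the gene's strand, and capitals mark the letters ATCAAAG or TTCAAAG read on either strand. They are chr8:88527383-88527632 (plus strand) for Nkd1, chr13:73847632-73847881 (minus strand) for Nkd2 and chr2:70474673-70474922 (plus strand) for Sp5.
Nkd1: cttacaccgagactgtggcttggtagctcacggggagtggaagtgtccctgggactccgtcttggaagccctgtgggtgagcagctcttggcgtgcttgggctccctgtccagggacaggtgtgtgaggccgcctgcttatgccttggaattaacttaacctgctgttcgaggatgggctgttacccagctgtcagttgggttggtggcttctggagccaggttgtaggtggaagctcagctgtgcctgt
Nkd2: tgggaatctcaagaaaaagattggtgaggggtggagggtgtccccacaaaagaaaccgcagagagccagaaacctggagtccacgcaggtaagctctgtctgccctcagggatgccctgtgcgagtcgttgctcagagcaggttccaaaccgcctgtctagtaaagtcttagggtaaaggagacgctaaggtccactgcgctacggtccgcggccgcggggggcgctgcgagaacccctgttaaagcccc
Sp5: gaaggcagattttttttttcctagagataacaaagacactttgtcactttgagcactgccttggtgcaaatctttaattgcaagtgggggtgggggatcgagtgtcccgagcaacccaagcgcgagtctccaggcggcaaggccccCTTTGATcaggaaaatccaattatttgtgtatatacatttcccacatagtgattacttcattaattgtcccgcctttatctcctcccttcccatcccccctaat
In Sp5 the core lies on the reverse strand, 104 bases before the start. Of the 48 genes 34 matched the RefSeq table, with 42 windows. The core occurred in 3 of these windows (7.14%), 1 each of Sp5, Wnt11 and Wnt5b, beside 7.48% of the 32851 windows of all genes. Neither Nkd window held these letters.

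Genes of the rest of the pathway are given by list, to be read against the 23.0% of all genes tested that rose and the 22.9% that fell; nothing particular to a list is read from its count. Of 6 Wnt secretion genes 5 were tested, and 1 rose and 1 fell. Porcn, which encodes the enzyme that adds the lipid to Wnts, went from 2.40 ± 0.131 to 1.28 ± 0.254 FPKM (SD, n = 3; log2 fold change -0.89 ± 0.16, adjusted p = 7.46e-05). The trafficking gene Tmed5 rose by 0.39 ± 0.043. Wls, which encodes the carrier that brings Wnts to the surface and was named after its value was seen, was at 40.4 ± 0.236 and 38.2 ± 0.931 FPKM and was not called.

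Among 24 genes that pass on the beta-catenin signal, 23 were tested, 4 rose, 5 fell and 14 were not called, with a median log2 fold change of -0.043. The co-repressor genes Tle1 and Tle3 went opposite ways, at -0.88 ± 0.097 and 0.51 ± 0.052. Ctnnbip1, an inhibitor of beta-catenin, changed by -0.47 ± 0.084 and the TCF gene Tcf7l2 by -0.43 ± 0.069, both falls. The beta-catenin gene Ctnnb1, named after its value was seen, went from 92.5 ± 1.83 to 78.6 ± 1.33 FPKM (-0.22 ± 0.039, adjusted p = 1.03e-04).

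Of 17 genes of signalling without beta-catenin, 13 were tested, with 4 up and 4 down. The planar polarity genes Prickle1 and Prickle2 rose by 1.46 ± 0.20 and 0.59 ± 0.12. Prickle1 was at 0.53, 0.79 and 0.41 FPKM in control medium and passed the filter only through its conditioned libraries, at 1.36, 1.77 and 1.59 FPKM. The same holds for Vangl2, another of the 4 rises, at means of 0.927 FPKM in control and 1.32 FPKM in conditioned medium. Vangl2 was named after its values were seen. In the same list the calcium-responsive factor genes Nfatc2 and Nfatc1 fell by 0.54 ± 0.070 and 0.53 ± 0.069. Of 16 other Wnt target genes 11 were tested, with 3 up and 4 down. Tcf7l2, given above among the genes that pass on the beta-catenin signal, is in this list too and is among its 4 falls. Ccn4, a secreted protein gene that beta-catenin can induce, went from 70.5 ± 3.35 to 34.9 ± 1.86 FPKM (log2 fold change -1.0 ± 0.049, adjusted p = 3.32e-13). Myc and Jag1 rose by 0.37 ± 0.059 and 0.34 ± 0.051.

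Of 16 genes for Wnt antagonists and other modulators of the Wnt signal, 7 were tested, 3 rose and 4 fell. The list's summed level was 347 to 367 FPKM in control and 263 to 278 FPKM in conditioned medium. Most of that sum came from Dkk3 and from Igfbp4, at 115.5 FPKM in control and 48.5 FPKM in conditioned medium. The 3 genes that rose were Sfrp1, Sfrp2 and Sfrp4, so the lower sum does not describe the antagonists as a group. Dkk3 went from 161 ± 1.61 to 119 ± 4.47 FPKM. Cthrc1 fell by 0.75 ± 0.071 and Kremen1 by 0.16 ± 0.052. Dkk3, Cthrc1 and Kremen1 were named after their values were seen. Sfrp1, which encodes a decoy that binds Wnts, went from 30.3 ± 1.74 to 62.1 ± 2.41 FPKM (log2 fold change 1.05 ± 0.050). Sfrp2 rose by 2.16 ± 0.15 and Sfrp4 by 3.14 ± 0.13, while Igfbp4, an IGF-binding protein gene, fell by 1.23 ± 0.048. Sfrp4 was above 1 FPKM in conditioned medium alone and would not have been tested at its control level.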

How the data were processed

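RNA was measured in the 6 samples, grouped as labelled. The authors deposited one table of all samples. Columns of raw read counts and of FPKM stand side by side there, per the file headers, with each gene's exonic length. Dividing a deposited count by that length and by the library total returned the deposited FPKM for 100% of values (tolerance 0.006). In the submitters' processing notes cutadapt 1.9.1 and HISAT2 2.0.1 appear, as do HTSeq 0.6.1, DESeq2 and GRCm39, without role or order. The sources used here do not state the use of strand.

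Raw counts entered edgeR 4.0.16 under R 4.3.3, with group as the single term, TMM scaling, the quasi-likelihood F test and Benjamini-Hochberg adjustment over 12153 genes whose mean FPKM reached 1. A standard error is the unshrunk log2 fold change divided by the root of F. The test was tried first on simulated data. Alternatives were filterByExpr, no filter, RLE factors, library totals, DESeq2 1.42.0, limma 3.58.1 on log2(FPKM + 1) or log2(FPKM + 0.1), a replicate block, and leaving out each sample.

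All tested members are named, as are members below the filter with 10 counts in a sample, and up to 4 called genes of each list. The members and lists were chosen with earlier results of these data known, and the alternatives for members below the filter after seeing the data. No replicate pair agreed within sampling noise (chi-square per degree of freedom 2.45 to 12.0 over genes). Floors cover counting error only.

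Marker lists not described with the results were examined too. Their summed FPKM in control and conditioned libraries was 5.79 to 9 and 25.45 to 29.52 for neutrophil, 22.43 to 23.66 and 25.47 to 25.85 for endothelial, and 117.8 to 165.7 and 64.42 to 66.26 for adipocyte genes. It was 3.53 to 4.2 and 1.35 to 1.83 for lymphocyte, 29.26 to 30.99 and 24.77 to 26.03 for chondrocyte, and 22.34 to 25.81 and 28.57 to 31.82 for hepatocyte genes. Single genes carried several sums. S100a8 went from 3.71 to 24.5 FPKM while S100a9 fell from 1.95 to 0.867 FPKM; Lpl went from 118 to 35.3 FPKM while Fabp4 rose from 9.20 to 22.8 FPKM; and Trf, at 22.6 and 28.3 FPKM, made up most of the hepatocyte sum, in which Apoa1, Hnf4a, Krt8, Serpina1a and Ttr were at 0 counts, Alb had 2 counts over all samples and Afp was not called. S100a9 passed the filter on mean FPKM only through control medium. The part of these lists in the results was not tested.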

Additional observations from a re-analysis of the deposited data

How the results depend on the processing

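Of the 21 tested members, 18 kept their side of the threshold under all 14 alternatives; Lrp6, Fzd4 and Rspo2 are given above with the settings that moved them across it. All kept their direction except Fzd3, which was not called and ran from -0.092 to 0.052 on the log2 scale. With filterByExpr or with no filter 4 members rose, against 2, because more genes are tested: Lgr6 and Tcf7 were added in the first, Lgr6 and Wnt6 in the second. Leaving out a replicate gave 4769 to 5873 called genes (5578 with all samples), 11 to 13 called members (12 with all), 9 to 11 members that fell (10 with all) and 27 to 32 called genes of the other pathway lists (32 with all). Same-numbered samples showed no shared deviation, with correlations of -0.006, 0.019 and 0.038, which does not settle whether they were paired in the culture. The fit with the replicate block called 5662 genes and 12 members. Rises made up 50.1% of calls, and 46.5% to 50.9% under the alternatives. On the log2(FPKM + 1) scale the changes of low genes are understated by construction, with Nkd1 at -1.03. Low counts limit what can be seen: for Axin2 the log2 fold change ran from -0.089 to 0.21 when samples were left out.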
